A study of Mus musculus with 12 samples.

Results

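The integrin subunits that bind the extracellular matrix were followed in Pdgfra+ cells that had been sorted from mouse lung and profiled by bulk RNA-seq. The 9 members were Itga1, Itga5, Itga8, Itga11, Itgav, Itgb1, Itgb3, Itgb5 and Itgb8, taken by name from the 40760 genes counted, and each name matched 1 gene. An integrin is a pair of 1 alpha and 1 beta subunit at the cell surface. Itga1 and Itga11 encode the collagen-binding alpha1 and alpha11, and Itga5, Itga8 and Itgav encode alpha5, alpha8 and alpha v, which read the RGD motif of ligands such as fibronectin. Itgb1 encodes the beta1 chain shared by alpha1, alpha5, alpha8, alpha11 and alpha v, whereas beta3, beta5 and beta8 pair with alpha v, and beta3 also with the platelet chain alphaIIb. The alpha v integrins and alpha8beta1 are known for binding the latent form of TGF-beta, the main fibrogenic growth factor, and alpha v pairs can release its active form.

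The study compared wild type (WT) mice with Pear1-/- mice after vehicle or bleomycin (bleo), an antibiotic that injures the lung and is used to induce pulmonary fibrosis. All 12 libraries came from male mice, with 3 in each of 4 groups, named WT vehicle and WT bleo and Pear1-/- vehicle and Pear1-/- bleo. By the study's methods the mice were young adults on the C57BL/6 background unless stated otherwise, and bleo was given as an aerosol into the trachea. The Pear1-/- allele is a knockout-first allele, with a trapping cassette in an intron, carried by every cell of the mouse and not only by Pdgfra+ cells. The day of harvest and the number of mice behind each library of this assay were not given in the sources used here, so p-values measure the spread between libraries, which may be partly technical.

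Between 6702948 and 10447101 reads were counted per library, and every member passed the filter on low counts, the lowest single value being 45 counts, of Itga11 in a WT bleo library. Pear1 itself had 547 ± 28.8 normalized counts in WT vehicle and 519.7 ± 24.0 in the vehicle libraries labelled Pear1-/- (SD, n = 3). After bleo it had 254 ± 14.0 in WT and 357 ± 14.2 with Pear1-/- labels, so that all libraries labelled Pear1-/- bleo were above all WT bleo libraries for the targeted gene. The table gives a single value per gene, which does not separate exons upstream of the cassette from those downstream, so the genotype below is the deposited label. Pdgfra, the gene of the sorting antigen, went from 4565 ± 325 normalized counts after vehicle to 1360.1 ± 29.9 after bleo in WT, and from 4165 ± 39.1 to 2392 ± 18.8 with Pear1-/- labels. Leukocyte RNA was present in all libraries of the sort: none of 26 leukocyte markers was at 0, and their summed normalized counts were 36446 to 58549 after vehicle and 169319 to 171316 after bleo in WT, and 57177 to 63407 after vehicle and 82341 to 83945 after bleo in Pear1-/-. The 12 fibroblast markers summed to 50031 to 74826 and 22280 to 22642 in WT and to 75281 to 76619 and 31190.0 to 31803 in Pear1-/-, again after vehicle and after bleo. Epithelial RNA was present as well, the 10 epithelial markers summing to 42436 to 60857 after vehicle and 16260 to 16472 after bleo in WT and to 57607 to 66938 and 7037 to 7246 in Pear1-/-. The upper ends of these 3 ranges in WT vehicle were 1 library, replicate 2, and without it the sums there were 36446 and 37175 for leukocyte, 50031 and 50127 for fibroblast and 42436 and 44090 for epithelial markers, below all Pear1-/- vehicle libraries. In bulk samples, fewer cells of a type and less RNA per cell cannot be told apart.

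The WT vehicle libraries were split. WT vehicle replicate 2 differed from WT vehicle replicates 1 and 3 by 0.434 and 0.451 (root mean square difference of log2 CPM, the depth-scaled count, over 5312 well expressed genes), but from the 3 Pear1-/- vehicle libraries by only 0.114, 0.124 and 0.147. WT vehicle replicates 1 and 3 differed from each other by 0.130. The tests of members against WT vehicle are therefore given with and without replicate 2, and other values that rest on it are given both ways where it moved them.

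The start sites of 8 members had an entry among RefSeq promoter sequences of GRCm38.p6, each 300 bases from 250 before to 50 after the start site of the entry. The Itgb8 window, chr12:119238227-119238526 on the minus strand, lay wholly inside the gene as annotated in GENCODE M21, whose 5′ end is at 119238802. Itgb3 had none. The windows of 6 members are printed 5′ to 3′ of the gene's strand, because the first 4 belong to the members with higher counts after bleo in the libraries labelled Pear1-/- and the last 2 to the members that fell most after bleo. Capitals mark the GC box GGGCGG, the motif of Sp1-type factors, on either strand.
Itga5, chr15:103366742-103367041, minus strand: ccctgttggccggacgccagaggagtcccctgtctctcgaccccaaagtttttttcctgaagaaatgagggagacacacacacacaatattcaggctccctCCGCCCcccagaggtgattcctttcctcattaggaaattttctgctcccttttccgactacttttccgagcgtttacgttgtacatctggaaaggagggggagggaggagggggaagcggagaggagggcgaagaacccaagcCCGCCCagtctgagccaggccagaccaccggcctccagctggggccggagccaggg
Itgav, chr2:83724147-83724446, plus strand: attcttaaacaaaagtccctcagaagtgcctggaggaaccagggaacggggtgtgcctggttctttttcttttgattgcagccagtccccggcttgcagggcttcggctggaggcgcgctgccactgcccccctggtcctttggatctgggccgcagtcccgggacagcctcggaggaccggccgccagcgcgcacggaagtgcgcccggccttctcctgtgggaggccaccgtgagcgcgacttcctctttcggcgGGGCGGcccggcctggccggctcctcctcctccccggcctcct
Itgb1, chr8:128685404-128685703, plus strand: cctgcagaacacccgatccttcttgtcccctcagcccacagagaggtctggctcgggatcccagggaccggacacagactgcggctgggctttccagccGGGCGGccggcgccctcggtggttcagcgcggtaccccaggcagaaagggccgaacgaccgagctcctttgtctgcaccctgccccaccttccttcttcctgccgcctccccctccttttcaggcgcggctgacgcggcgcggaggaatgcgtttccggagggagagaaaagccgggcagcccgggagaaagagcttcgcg
Itgb5, chr16:33829415-33829714, plus strand: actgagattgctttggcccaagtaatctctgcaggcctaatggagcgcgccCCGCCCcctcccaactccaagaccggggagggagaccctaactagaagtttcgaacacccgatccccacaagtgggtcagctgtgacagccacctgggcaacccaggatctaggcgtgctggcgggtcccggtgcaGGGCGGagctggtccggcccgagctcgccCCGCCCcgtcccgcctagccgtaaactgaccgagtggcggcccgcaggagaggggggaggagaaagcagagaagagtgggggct
Itga8, chr2:12301895-12302194, minus strand: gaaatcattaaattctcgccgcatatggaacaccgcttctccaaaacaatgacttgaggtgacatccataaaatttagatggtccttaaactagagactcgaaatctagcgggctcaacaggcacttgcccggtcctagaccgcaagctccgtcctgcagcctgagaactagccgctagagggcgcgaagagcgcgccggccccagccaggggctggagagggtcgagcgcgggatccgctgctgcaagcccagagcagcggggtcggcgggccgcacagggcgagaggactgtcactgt
Itga11, chr9:62677605-62677904, plus strand: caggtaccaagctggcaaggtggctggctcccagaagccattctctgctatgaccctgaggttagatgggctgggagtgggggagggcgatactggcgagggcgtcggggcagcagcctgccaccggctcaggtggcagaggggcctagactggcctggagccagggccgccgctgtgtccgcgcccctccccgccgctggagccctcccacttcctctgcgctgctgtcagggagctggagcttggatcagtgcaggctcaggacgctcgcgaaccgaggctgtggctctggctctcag

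The GC box was present in the windows of Itga5, Itgav, Itgb1 and Itgb5 and in none of those of Itga1, Itga8, Itga11 and Itgb8, while 35.7% of 32851 windows of the same length held it. Itgb5 had 3 matches, Itga5 2, and Itgav and Itgb1 1 each, with no match overlapping another motif searched. The AP-1 motif TGAGTCA was in none of the 8 windows, against 5.2% of all. CAGACA, a SMAD motif, was in the windows of Itgb1 and Itgb8 (21% of all), and GGAATG, a TEAD motif, in that of Itgb1 (14.7% of all), both strands being searched. The 8 windows ranged from 56.7% to 68% in G and C, against a median of 52.7% over all windows. These are matches of letters in a fixed window.

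**Figure D1:**
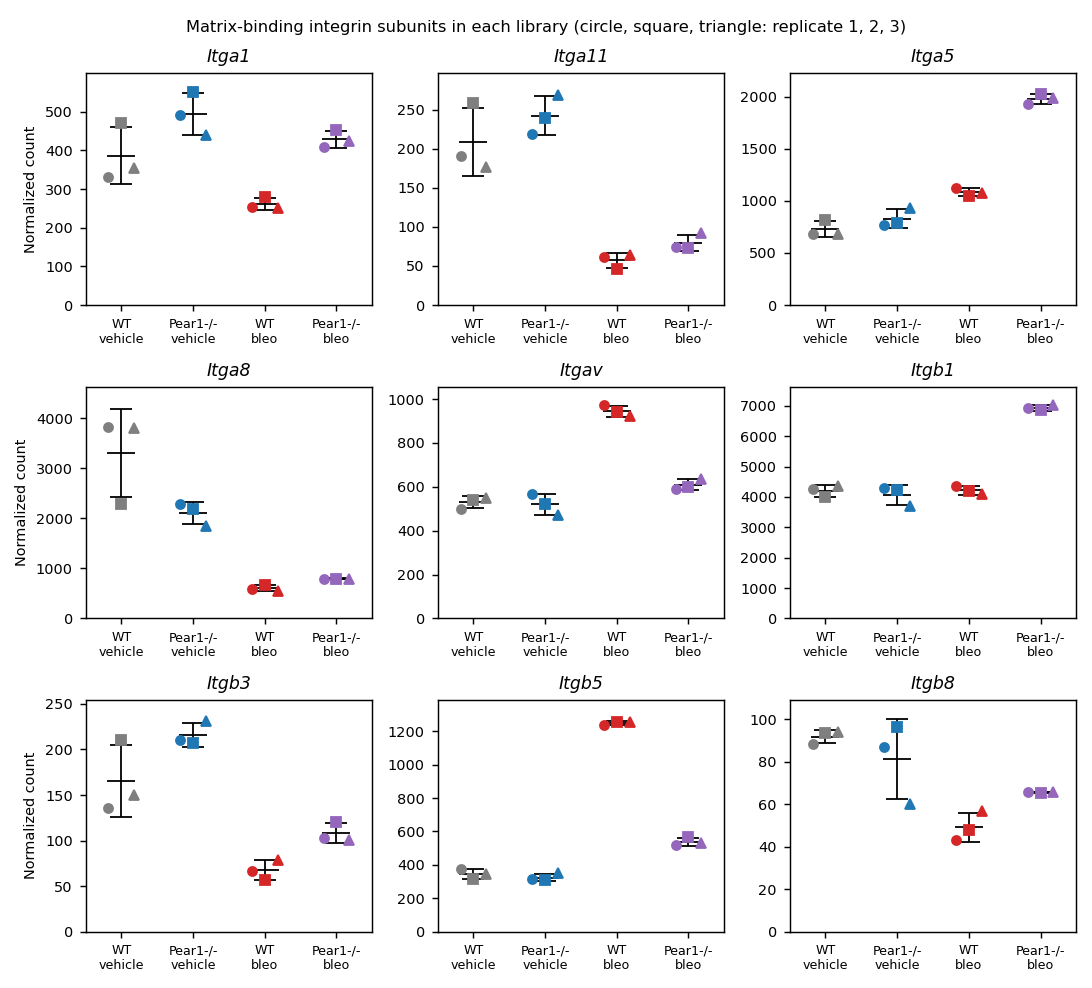
Normalized count (y axis, linear, from 0) of each of the 9 integrin subunits in each of the 12 libraries, by group (x axis). Points are libraries, with the symbol giving the replicate, and bars are the mean ± SD of 3 libraries. Itgb5 and Itgav were highest in WT bleo, Itgb1 and Itga5 in Pear1-/- bleo, and the square of WT vehicle (replicate 2) sat near the Pear1-/- vehicle libraries for Itga8.

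Per length of annotated exons, Itgb1 had the highest level of the 9 members in every group, at 1031 normalized counts per kb after vehicle and 1033 after bleo in WT and at 997 and 1701 in Pear1-/-. In WT vehicle it was followed by Itga8 at 449, Itga5 at 148, Itgb5 at 97.2, Itgav at 49.4, Itga11 at 40.6, Itgb3 at 28.0, Itga1 at 20.7 and Itgb8 at 8.31 normalized counts per kb. The ranges of Itgav and Itga11, of Itga11 and Itgb3, and of Itgb3 and Itga1 overlapped there, so these neighbours were not ordered beyond their spread. Without WT vehicle replicate 2 the order was unchanged, with Itga8 at 518, Itga11 at 35.7, Itgb3 at 24.2 and Itga1 at 18.5, and none of these ranges overlapped. In WT bleo the second place was taken by Itgb5 at 352, ahead of Itga5 at 219.7, Itgav at 88.0 and Itga8 at 82.3, of which the last pair overlapped. In Pear1-/- bleo the order was Itgb1, Itga5 at 401, Itgb5 at 151 and Itga8 at 107, without overlap. Itgb8, at 4.45 to 8.31 on average, was the lowest member in all 4 groups.

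Bleo in WT mice was the first comparison. In WT bleo, Itgb5, Itgav and Itga5 were higher than in WT vehicle, and Itga8, Itga11, Itgb3, Itgb8 and Itga1 were lower. Thus 3 members rose, where 31.4% of the 17418 genes tested rose, and 5 fell, where 36.6% of all genes fell, by edgeR's quasi-likelihood test with Benjamini-Hochberg adjustment over all genes tested. With a fold change above 2 as well, 1 member rose (Itgb5; 10.5% of all genes) and 3 fell (Itga8, Itga11 and Itgb3; 23.5% of all genes). The median log2 fold change was -0.55 over the members and -0.07 over all genes tested. Without WT vehicle replicate 2, again 3 members rose and 5 fell, where 31.7% of the 20405 genes tested rose and 44.7% fell, with medians of -0.32 over the members and -0.21 over all genes tested.

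Itgb5 encodes beta5, whose only known partner is alpha v. Its normalized counts were 377, 316 and 343 in the WT vehicle libraries and 1236, 1257 and 1256 in those of WT bleo. With Pear1-/- labels they were 313, 311 and 349 after vehicle and 517, 565 and 530.0 after bleo. All WT bleo libraries lay far above all others, and the vehicle groups overlapped. The log2 fold change was 1.87 in WT (standard error 0.080, adjusted p = 2.37e-11, edgeR) and 1.87 without WT vehicle replicate 2. In the libraries labelled Pear1-/- it was 0.73 (standard error 0.080, adjusted p = 1.49e-06).

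Itgav, which encodes the alpha v chain itself, had 501, 541 and 549.5 normalized counts in the WT libraries after vehicle and 973, 939 and 923 after bleo. In Pear1-/- it had 566, 523 and 473 after vehicle and 589.6, 599 and 638 after bleo. As for Itgb5, the WT bleo libraries were the highest and did not overlap any other group. Its log2 fold change after bleo was 0.84 in WT (standard error 0.076, adjusted p = 1.24e-07, edgeR) and 0.92 without WT vehicle replicate 2. With Pear1-/- labels it was 0.23 (standard error 0.076, adjusted p = 0.0162), a call that was lost when any of 5 libraries was left out, with adjusted p up to 0.14.

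Itga5, the fibronectin receptor's alpha chain, had 684, 816 and 685 normalized counts in WT vehicle libraries and 1126, 1046 and 1079 after bleo. In the libraries labelled Pear1-/- it had 772, 783 and 931 after vehicle and 1928, 2027 and 1985 after bleo. The bleo libraries of each genotype lay above its vehicle libraries, and those of Pear1-/- bleo were the highest of all. Log2 fold changes were 0.58 in WT (standard error 0.088, adjusted p = 3.16e-05, edgeR; 0.74 without WT vehicle replicate 2) and 1.26 in Pear1-/- (standard error 0.088, adjusted p = 9.73e-09).

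Itgb1, the shared beta chain, had 4255, 3993 and 4372 normalized counts in WT after vehicle and 4367, 4187 and 4094 after bleo. With Pear1-/- labels it had 4279, 4227 and 3695 after vehicle and 6939, 6848 and 7038 after bleo. The first 3 of these groups overlapped, and Pear1-/- bleo lay above them all. The log2 difference between WT bleo and WT vehicle was 0.01 (95% interval -0.12 to 0.15, adjusted p = 0.862, edgeR; 0.04 without WT vehicle replicate 2, adjusted p = 0.47), and that between Pear1-/- bleo and Pear1-/- vehicle was 0.78 (standard error 0.069, adjusted p = 1.52e-07).

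Itga8, the receptor chain for nephronectin, had the largest fall in WT. In WT it had 3820.1, 2288 and 3810.0 normalized counts after vehicle and 593, 671 and 554 after bleo, and in Pear1-/- 2280.2, 2194 and 1854 after vehicle and 781, 794 and 796 after bleo. No bleo library reached any vehicle library, and WT vehicle replicate 2 lay at the level of the Pear1-/- vehicle libraries. Log2 fold changes after bleo were -2.44 in WT (standard error 0.16, adjusted p = 3.54e-09, edgeR; -2.58 without WT vehicle replicate 2) and -1.41 in Pear1-/- (standard error 0.16, adjusted p = 1.62e-06).

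The collagen receptor chain Itga11, a marker of collagen-producing fibroblasts, had 190.4, 258 and 176 normalized counts in WT after vehicle and 61.5, 45.9 and 63.8 after bleo, against 219, 239 and 268 and then 74.6, 73.1 and 91.5 in Pear1-/-. It was low in all bleo libraries. Its log2 fold change was -1.86 in WT (adjusted p = 1.48e-07, edgeR; -1.60 without WT vehicle replicate 2) and -1.60 in Pear1-/- (adjusted p = 4.48e-07). Itga1, the other collagen receptor chain, had 332, 469.8 and 355 normalized counts in WT after vehicle and 253, 279 and 251 after bleo, against 491, 550.1 and 441 and then 409, 453 and 424 in Pear1-/-. Its WT bleo libraries were the lowest, and its Pear1-/- groups overlapped. The log2 fold change of Itga1 was -0.55 in WT (adjusted p = 0.000778, edgeR; -0.32 without WT vehicle replicate 2, adjusted p = 0.00307), and its log2 difference was -0.20 in Pear1-/- (95% interval -0.42 to 0.02, adjusted p = 0.132).

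Itgb3 encodes the beta3 chain of the vitronectin receptor and, with Itga2b, of the platelet fibrinogen receptor. WT libraries had 136, 210.0 and 150.0 normalized counts after vehicle and 67.0, 57.1 and 79.0 after bleo, and Pear1-/- libraries 210.2, 207 and 231 and then 103, 120.3 and 101. Bleo libraries were lower than vehicle libraries in both genotypes. Log2 fold changes were -1.28 in WT (adjusted p = 7.3e-06, edgeR; -1.001 without WT vehicle replicate 2) and -0.99 in Pear1-/- (adjusted p = 4.21e-05). Itgb8, whose product presents latent TGF-beta together with alpha v, ranged from 88.5 to 93.9 normalized counts after vehicle and 43.2 to 56.7 after bleo in WT, and from 60.0 to 96.5 and 65.3 to 65.8 in Pear1-/-. The WT bleo libraries were the lowest, and the Pear1-/- groups overlapped. Log2 values were -0.89 in WT (adjusted p = 0.000368, edgeR; -0.82 without WT vehicle replicate 2) and -0.31 in Pear1-/- (95% interval -0.64 to 0.02, adjusted p = 0.116).

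Over the members in the libraries labelled Pear1-/-, 4 rose after bleo (Itga5, Itgb1, Itgb5 and Itgav; 28.9% of all genes rose), 3 fell (Itga11, Itga8 and Itgb3; 33.4% of all genes fell) and 2 were not called. With a fold change above 2, 1 rose (Itga5; 8.38% of all genes) and 2 fell (Itga8 and Itga11; 19.4% of all genes). The median log2 fold change was -0.20 over the members and -0.05 over all genes tested.

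**Figure D2:**
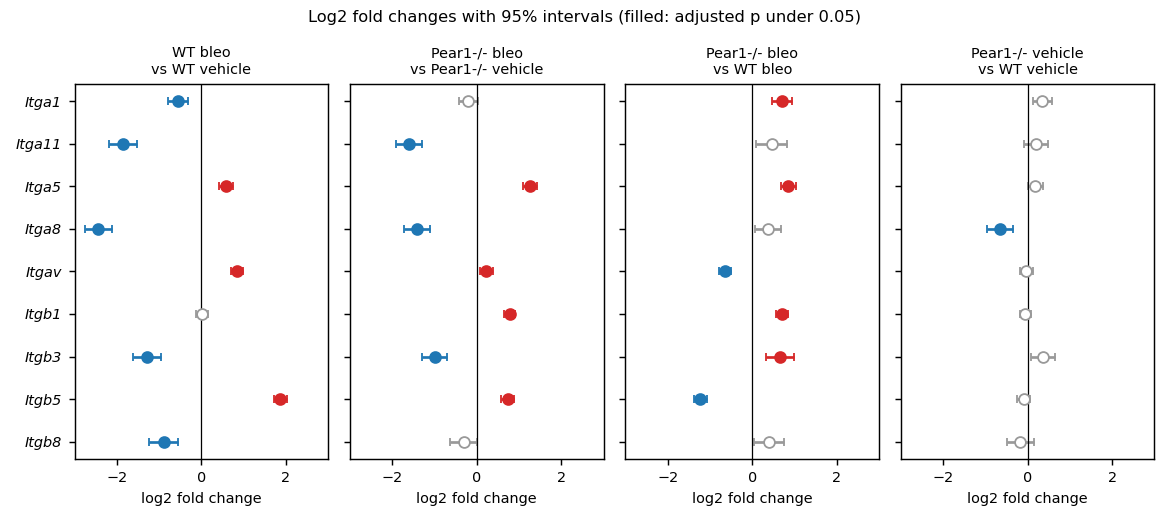
Log2 fold change (x axis) of each member (y axis) in 4 comparisons, 1 per panel, with 95% intervals from edgeR's standard errors; filled points passed adjusted p under 0.05, red for higher and blue for lower. Itgb5 ranged from 1.87 in WT after bleo to -1.23 between the genotypes after bleo, and only Itga8 was called in the vehicle panel.

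The genotypes were then compared after bleo. In Pear1-/- bleo, Itga5, Itgb1, Itga1 and Itgb3 were higher than in WT bleo and Itgb5 and Itgav were lower. These 4 higher members stand beside 22.1% of all genes tested, and the 2 lower members beside 23.9%. With a fold change above 2, no member was higher (6.26% of all genes) and 1, Itgb5, was lower (8.76% of all genes). The members' median log2 fold change was 0.46, against -0.01 over all genes.

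Among the alpha v subunits, the log2 fold change of Itgb5 between the genotypes was -1.23 (standard error 0.076, adjusted p = 6.49e-09, edgeR), from the 1236 to 1257 normalized counts of WT bleo to the 517 to 565 of Pear1-/- bleo. That of Itgav was -0.65 (standard error 0.074, adjusted p = 4.33e-06). Itgb3 moved the other way, by 0.66 (standard error 0.17, adjusted p = 0.00507), and its adjusted p reached 0.0499 over the alternative settings. Itgb8 had 0.40 (95% interval 0.05 to 0.75) and did not pass at an adjusted p of 0.0775, which ranged from 0.0238 to 0.272 over the other settings and passed in 1 of 13, the fit of only the bleo groups.

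Among the beta1 partners, Itga5 was higher by 0.86 (standard error 0.086, adjusted p = 1.15e-06, edgeR), Itgb1 itself by 0.71 (standard error 0.069, adjusted p = 7.55e-07) and Itga1 by 0.70 (standard error 0.12, adjusted p = 0.000168) on the log2 scale. Itga11 had a log2 difference of 0.46 (95% interval 0.10 to 0.82, adjusted p = 0.0519) and Itga8 of 0.37 (95% interval 0.06 to 0.68, adjusted p = 0.0655). For both, the Pear1-/- bleo libraries lay above the WT bleo libraries without overlap, and the adjusted p ranged from 0.00644 to 0.277 for Itga11 and from 4.87e-09 to 0.192 for Itga8 over the other settings.

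Markers of other cell types moved with this comparison. Of the 26 leukocyte markers, 21 were lower and 1 was higher in Pear1-/- bleo, with a median log2 fold change of -0.92. In WT after bleo 18 of these markers rose and 6 fell, and 19 rose and 6 fell without WT vehicle replicate 2. Of the 10 epithelial markers, 6 were lower in Pear1-/- bleo, among them Sftpc, the surfactant protein of alveolar type II cells (-2.002 on the log2 scale), 1 was higher (Cdh1, E-cadherin, 0.40) and 3 were not called. The 8 pericyte and smooth muscle markers summed to 4424 to 4519 normalized counts in WT bleo and 12153 to 12441 in Pear1-/- bleo, beside the higher Itga5, Itgb1 and Itga1. Of these 8, 4 were higher (Des, Acta2, Kcnj8 and Mcam), 2 were lower (Notch3 and Myh11) and 2 were not called, and Acta2, smooth muscle actin, which myofibroblasts also express, made up 60.2% of the sum in WT bleo and 63.6% in Pear1-/- bleo. Itgb3 was higher in Pear1-/- bleo. The 7 platelet and megakaryocyte markers summed to 683 to 715 in WT bleo and 369 to 381 in Pear1-/- bleo, where 1, Gp6, was at 0. That sum was mostly Pf4, platelet factor 4, which made up 88.1% of it in WT bleo and 70.1% in Pear1-/- bleo. The sum followed Pf4, at 614 ± 10.1 and 264 ± 7.21 normalized counts, while Itga2b had 40.9 ± 9.75 and 71.2 ± 10.4. Of the 5 platelet markers tested, 2 were lower (Pf4 and Gp6), 1 was higher (Itga2b, the alphaIIb partner of beta3, 0.78) and 2 were not called. Of the 12 fibroblast markers, 6 were higher, 3 lower and 3 not called in Pear1-/- bleo, and of the 4 mesothelial markers 3 were higher, their sums being 71.4 to 85.4 in WT bleo and 117 to 137 in Pear1-/- bleo. Of the 8 endothelial markers, 1 was higher, 2 were lower and 5 were not called. The part of these cell types in the members' values was not tested.

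In vehicle-treated mice, 1 member was called between the genotypes. Itga8 was lower in the libraries labelled Pear1-/-, at -0.65 on the log2 scale (adjusted p = 0.0405, edgeR; standard error 0.15), where 3.65% of all genes were lower. No member was higher at an adjusted p under 0.05 in this fit, by DESeq2 or by limma, against 0.855% of all genes by edgeR, although 2, Itga1 and Itgb3, had unadjusted p of 0.00828 and 0.0228. With no filter on low counts edgeR called both higher (log2 fold change 0.44, adjusted p = 0.00279, and 0.46, adjusted p = 0.0109), and with a replicate block it called Itga1 (0.36, adjusted p = 0.047). None passed a fold change above 2 in either direction (0.0344% of all genes were higher and 2.33% lower). The median was -0.03 over the members and -0.004 over all genes on the log2 scale, and 0.06 and -0.03 without WT vehicle replicate 2.

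This comparison turned on WT vehicle replicate 2. With it, the log2 differences of Itga1, Itgb3, Itga11 and Itga5 were 0.35, 0.37, 0.21 and 0.18, with adjusted p of 0.0702, 0.105, 0.331 and 0.177 (edgeR). Without it, 5 members were called: Itga1 (log2 fold change 0.59, adjusted p = 6.48e-07, edgeR), Itgb3 (0.66, adjusted p = 2.79e-05), Itga11 (0.47, adjusted p = 0.00123) and Itga5 (0.34, adjusted p = 0.000193) were higher in the libraries labelled Pear1-/-, and Itga8 was lower (-0.79, adjusted p = 5.03e-14). In that fit 25.5% of all genes were higher and 29.7% lower, so the 5 of 9 members stand beside 55.2% of all genes called. Markers moved with these calls: 19 of 26 leukocyte markers were higher and 0 lower (1 and 0 with the library), and 8 of 12 fibroblast, 6 of 10 epithelial and 4 of 8 endothelial markers were higher and 3, 1 and 0 lower. Their part in the members' values was not tested. Without any 1 of the other 5 vehicle libraries, edgeR called 0 members, with 2 to 4 at an unadjusted p under 0.05. Over all genes, the number called was 784 of 17418 tested with the library, 11258 of 20405 without it, and 0 without any 1 of the others, with 2955 to 5868 genes at an unadjusted p under 0.05. Itgav, Itgb1, Itgb5 and Itgb8 had log2 differences of -0.03, -0.05, -0.10 and -0.18 with the library and 0.06, -0.02, -0.09 and -0.09 without it, none of them called.

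The difference between the genotypes in the response to bleo was tested as an interaction. For 3 members, Itga8, Itgb1 and Itga5, the change was more positive in Pear1-/- (17.9% of all genes), and for 2, Itgb5 and Itgav, it was more negative (19.1% of all genes). With a difference above 2-fold, these were 1 (Itga8; 8.61% of all genes) and 1 (Itgb5; 7.06% of all genes). The interaction, in log2 units, was -1.14 for Itgb5 (standard error 0.11, adjusted p = 2.31e-06, edgeR) and -0.62 for Itgav (standard error 0.11, adjusted p = 0.000398). It was 0.76 for Itgb1 (standard error 0.097, adjusted p = 2.56e-05) and 0.68 for Itga5 (standard error 0.12, adjusted p = 0.000602). The interaction of Itga8 was 1.02 (standard error 0.22, adjusted p = 0.00191), and without WT vehicle replicate 2 it was 1.15.

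Without that library the interactions were -1.15 for Itgb5, -0.72 for Itgav, 0.71 for Itgb1 and 0.51 for Itga5, and the same 5 members were called, where the interaction was more positive in 20.4% and more negative in 26% of all genes. Those of Itga1, Itga11, Itgb3 and Itgb8 were 0.35, 0.26, 0.29 and 0.58, with adjusted p of 0.106, 0.414, 0.335 and 0.0745. Without WT vehicle replicate 2 they were 0.10, -0.02, -0.005 and 0.48, none of them called. The median interaction was 0.35 over the members and -0.001 over all genes, and 0.10 and 0.01 without that library.

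The partners of alpha v were set side by side by their share of the summed per-length level of Itgb1, Itgb3, Itgb5, Itgb6 and Itgb8, with Itgb6 added as the epithelial partner. Itgb5 made up 8.31% ± 0.56 of this sum in WT vehicle and 25.1% ± 0.76 in WT bleo, but 8.10% ± 1.09 and 8.04% ± 0.41 after vehicle and after bleo in Pear1-/- (SD, n = 3). Without WT vehicle replicate 2, the WT vehicle libraries had 8.96% and 8.001%. The shares in Pear1-/- bleo lay within the range of the vehicle libraries and those in WT bleo above all other libraries. Itgb5 itself rose in Pear1-/- after bleo, from 91.3 to 151 normalized counts per kb. Its share stayed level because Itgb1, most of the sum, rose from 997 to 1701. Itgb3 made up 2.41% ± 0.68, 0.818% ± 0.14, 3.25% ± 0.42 and 0.975% ± 0.10 in the same order of groups, low in both bleo groups, and WT vehicle replicate 2 was the highest of its group at 3.19% against 1.94% and 2.104%. Itgb8 stayed under 1%, with 0.712%, 0.318%, 0.643% and 0.315%, and Itgb1 took 88.1%, 73.5%, 87.8% and 90.4%. The ratio of Itgb5 to Itgb3 per length had medians of 3.80, 30.6, 2.50 and 8.33 in that order, and WT vehicle replicate 2 had the lowest ratio of its group, 2.50. Beta1 also pairs with other alpha chains, so these shares are of transcripts and not of alpha v pairs.

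**Figure D3:**
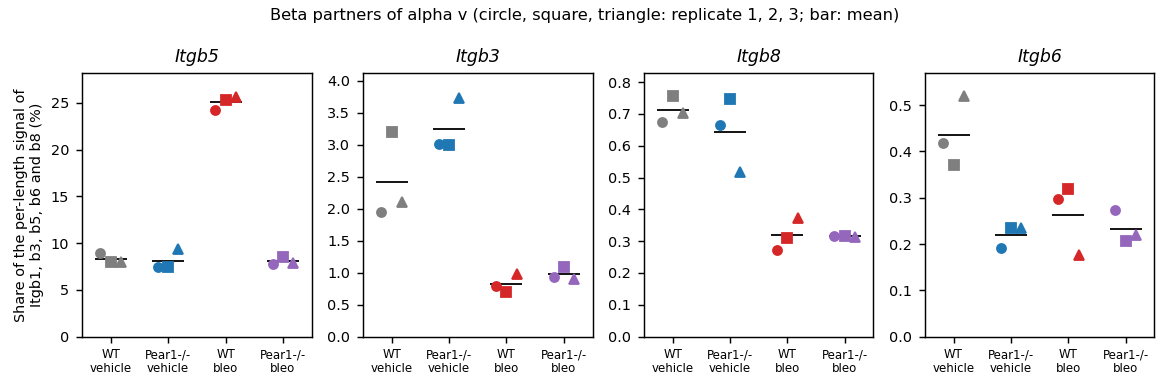
Share (y axis, percent, from 0, a separate scale in each panel) of the beta partners of alpha v in the summed per-length level of Itgb1, Itgb3, Itgb5, Itgb6 and Itgb8, by library and group (x axis). Points are libraries, with the symbol giving the replicate, and bars are means. The share of Itgb5 was near 8% in all groups but WT bleo, where its mean was 25.1%. In Pear1-/- the levels of Itgb5 and Itgb1 both rose after bleo.

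The remaining integrin genes were counted from 2 lists. Of 9 other subunits of matrix, platelet or epithelium, 2 rose and 6 fell in WT after bleo, and 2 were higher and 3 lower in Pear1-/- bleo than in WT bleo. Itga6, a laminin receptor chain also found on macrophages, had 104 ± 19.9 normalized counts after vehicle and 609 ± 38.5 after bleo in WT, and 109.9 ± 4.50 and 173 ± 6.05 in Pear1-/- (SD, n = 3). Like Itgb5 and Itgav it was highest in WT bleo, and its log2 fold change between the bleo groups was -1.83 (adjusted p = 1.58e-09, edgeR). Itga2, the collagen receptor chain of platelets and epithelium, had 11.5 ± 3.29 normalized counts in WT bleo against 39.6 ± 6.34 with Pear1-/- labels, a log2 difference of 1.76 (adjusted p = 4.01e-05). Of 8 leukocyte integrin subunits, 3 rose and 3 fell in WT after bleo (3 and 1 without WT vehicle replicate 2), and 7 were lower and 1 higher in Pear1-/- bleo. Itgax and Itgb2, which encode CD11c and the shared beta2 chain, had log2 fold changes of -1.54 (adjusted p = 3.53e-10) and -0.76 (adjusted p = 1.38e-05) between the bleo groups. The higher subunit, Itgad, had the largest change of the list there, 3.68. It was low in WT vehicle, at 17.0, 4.06 and 11.4 normalized counts.

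**Figure D4:**
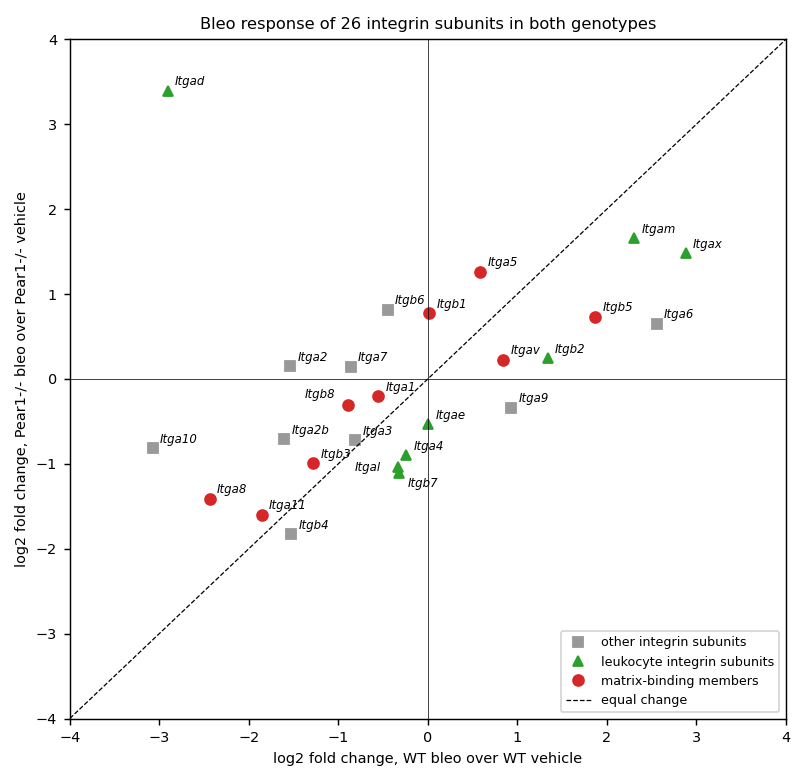
Log2 fold change after bleo in WT (x axis) and in Pear1-/- (y axis) of 26 integrin subunits, the 9 members as red circles, 9 other subunits as grey squares and 8 leukocyte subunits as green triangles; the dashed line marks an equal change. Itgb5 and Itgav lay below the line with the leukocyte chains Itgax, Itgam and Itgb2, and Itga5, Itgb1 and Itga8 lay above it, as did the leukocyte chain Itgad.

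Ligands of the members were followed in the same libraries. Over these and the other gene and marker lists together, 135 of 149 genes were called in WT after bleo, and 135 again without WT vehicle replicate 2, beside 68% and 76.4% of all genes tested. The counts in WT given below for each list were the same without it, save for the collagens. Of 7 collagen genes whose products alpha1 and alpha11 bind, 4 rose and 1 fell in WT after bleo (6 and 1 without WT vehicle replicate 2), and all 7 rose in Pear1-/- after bleo and were higher in Pear1-/- bleo than in WT bleo. Col1a1, the main chain of type I collagen, reached 42471 ± 36.2 normalized counts in WT bleo against 142173 ± 3129 with Pear1-/- labels, which is 1.73 on the log2 scale (adjusted p = 6.6e-12, edgeR). In the same pair of groups its receptor chains Itga1 and Itga11 had 0.70 and 0.46.

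Of 18 other ligand genes, 7 rose and 11 fell in WT after bleo, 10 rose and 5 fell in Pear1-/- after bleo, and 16 were higher and 2 lower in Pear1-/- bleo than in WT bleo. Fn1, fibronectin, the ligand of alpha5beta1, had 2425 ± 709 normalized counts after vehicle and 14994 ± 120.3 after bleo in WT, and 1514 ± 79.0 and 30969.8 ± 520.1 in Pear1-/-. Within WT vehicle, replicate 2 had 1607 against 2838 and 2831 in replicates 1 and 3. Fn1 followed the order of Itga5 in the bleo groups, with a log2 fold change of 1.03 between them (adjusted p = 3.65e-05, edgeR). Spp1, osteopontin, a ligand of alpha v integrins, rose from 873 ± 97.0 in WT vehicle to 27776 ± 429 in WT bleo and from 799.6 ± 58.9 to 87909 ± 1699 in Pear1-/-, and was higher in Pear1-/- bleo by a log2 fold change of 1.65 (adjusted p = 1.94e-10). Among the members that form alpha v integrins, Itgav (-0.65) and Itgb5 (-1.23) were lower there, Itgb3 (0.66) and Itgb1 (0.71) were higher, and Itgb8 was not called. Npnt, nephronectin, the high-affinity ligand of alpha8beta1, had 5247 ± 2131 normalized counts after vehicle and 1516 ± 20.4 after bleo in WT, and 2605 ± 87.5 and 2278 ± 48.6 in Pear1-/-. It was highest in WT vehicle, as was Itga8, and there replicate 2 had 2790.4 against 6607 and 6342 in the others, near the level of Pear1-/- vehicle as for Itga8. Vtn, vitronectin, the ligand of alpha v beta3 and beta5, fell to 8.48 ± 1.16 after bleo in WT and to 2.099 ± 1.84 in Pear1-/-, from 47.1 ± 9.23 and 49.7 ± 4.58 after vehicle.

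Of 9 genes for latent TGF-beta and the proteins that hold it, 4 rose and 5 fell in WT after bleo, and 5 were higher and 2 lower in Pear1-/- bleo than in WT bleo. Tgfb1, whose latent form alpha v integrins bind, had log2 fold changes of 0.82 in WT after bleo (adjusted p = 2.08e-06, edgeR; 0.97 without WT vehicle replicate 2) and -0.46 between the genotypes after bleo (adjusted p = 0.000803), the signs of Itgav and Itgb5. Tgfb2 and Tgfb3, the other TGF-beta genes, had the opposite signs, at -0.96 and -1.30 in WT after bleo (adjusted p = 1.09e-06 and 2.51e-10) and 1.11 and 0.71 between the genotypes after bleo (adjusted p = 4.08e-07 and 6.4e-07). Ltbp1, which ties latent TGF-beta to the matrix, had -1.37 (adjusted p = 5.69e-11; -1.32 without that library) and 1.19 (adjusted p = 1.28e-09), and Nrros, which holds it on macrophages and microglia, had 1.80 (adjusted p = 1.42e-08; 2.12 without it) and -0.73 (adjusted p = 0.000226).

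Of 27 genes for proteins at the cytoplasmic face of integrin adhesions, 26 could be tested, Ilk being below the filter. In WT after bleo 11 rose and 14 fell, in Pear1-/- after bleo 12 rose and 7 fell, and 14 were higher and 5 lower in Pear1-/- bleo than in WT bleo. Fermt2, kindlin-2, an activator that binds beta tails, had 543 ± 23.8 normalized counts in WT bleo against 1215 ± 53.7 with Pear1-/- labels (log2 fold change 1.15, adjusted p = 1.69e-08, edgeR). Ptk2, the focal adhesion kinase, had 171 ± 20.6 and 382 ± 25.9 (1.15, adjusted p = 1.69e-07). Tln1, talin-1, which links beta tails to actin, had -0.30 (adjusted p = 0.00124), the sign of Itgav and Itgb5.

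Genes whose log2 CPM ran most closely with each member over the 12 libraries were sought among 10453 well expressed genes, as a description. All 12 libraries, WT vehicle replicate 2 included, entered, and the points share 4 groups, so the coefficients mainly follow group means. Closest to Itgb5 were Atf3, Cxcl16 and Ptpn12 (r = 0.997, 0.997 and 0.996), and closest to Itgav were Ep300, Tec and Itga6 (r = 0.991, 0.987 and 0.985). Itgb1 ran with Lox, a collagen cross-linking enzyme, Mettl9 and Tnn (r = 0.989, 0.989 and 0.986), and Itga5 with Ssr2, Tmsb10 and Fscn1 (r = 0.994, 0.993 and 0.990). For Itga8 they were Ppp1r12b, Clic4 and Gm4956 (r = 0.994, 0.992 and 0.992), for Itga11 Ndn, Rarres2 and Ighv14-3 (r = 0.992, 0.990 and 0.989), and for Itgb3 Tm4sf1, Anxa11 and Wee1 (r = 0.988, 0.987 and 0.985). Itga1 had Pou2af1, Il1r1 and Gadd45a (r = 0.977, 0.973 and 0.970) and Itgb8, the lowest member, Zfp449, Daam1 and Gbe1 (r = 0.948, 0.938 and 0.936). Among the members, Itgav and Itgb5 had r = 0.962 and Itga11 and Itgb3 had r = 0.952.

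In the GENCODE M21 annotation of GRCm38, 3 members share exonic bases with another gene. These were Itga8 (chr2:12106632-12301922, minus strand; 5.05% of its exonic bases, with the antisense E030013I19Rik), Itgav (chr2:83724397-83806916, plus strand; 5.9%, with the antisense Gm13684) and Itga1 (chr13:114953096-115101964, minus strand; 3.68%, with Gm49395 on the same strand). The library kits do not mark strand, so reads in these stretches cannot be assigned to 1 gene of the pair. The other members lie at chr15:103344286-103366763 (Itga5, minus strand), chr9:62677826-62783982 (Itga11, plus strand), chr8:128685654-128733200 (Itgb1, plus strand), chr11:104608000-104670476 (Itgb3, plus strand), chr16:33829665-33949338 (Itgb5, plus strand) and chr12:119158022-119238802 (Itgb8, minus strand).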

How the data were processed

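RNA of Pdgfra+ (CD140a+) cells sorted from mouse lung was made into full-length cDNA with the SMART-Seq v4 kit and a tagmentation library kit, and by the study's methods the reads were aligned with HISAT2 to GRCm38. The counting program was not given in the sources used here. The authors deposited raw counts per gene, not normalized, and a second table of normalized values, a signal that was tested on the files: it equals the counts divided by the DESeq2 size factor of each library, with 1 ratio per library for 100% of genes.

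Samples were grouped by GEO's labels, 3 libraries in each of 4 groups. The counts of all 12 libraries were fitted with edgeR 4.0.16 in R 4.3.3 (quasi-likelihood test, two-sided, TMM, filterByExpr with a minimum count of 10, 1 mean per group, Benjamini-Hochberg adjustment over 17418 genes), and a gene was called at an adjusted p under 0.05. Depth limits precision most for Itgb8, Itga11 and Itgb3. With 3 libraries against 3 an exact permutation test cannot go below p = 0.1, so it was not used for calls. Per-length levels divide normalized counts by the exonic bases of GENCODE M21. Promoter sequences are RefSeq's, of GRCm38.p6.

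The members and all gene lists, motifs and markers were chosen with earlier results of these data known. The genes named are all 9 members, and of each list the 2 with the highest level, the 2 with the largest called change, or a known ligand or partner of a member. The markers Cdh1, Kcnj8, Mcam, Notch3 and Myh11 fall outside this rule and were named after their values were seen. Alternatives were DESeq2 size factors, total counts, no filter, DESeq2 1.42.0, limma 3.58.1 on variance-stabilized values as in the study, a replicate block, each library left out, and fits of only the groups compared. The script was tested on simulated data.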

Additional observations from a re-analysis of the deposited data

Results flagged for a closer look

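For 5 members, where 37% of all genes were called (46.4% without WT vehicle replicate 2), the response to bleo differed between the genotypes. The test was that of the interaction itself (edgeR, Benjamini-Hochberg adjustment over all genes tested). The difference was -1.14 for Itgb5 and -0.62 for Itgav on the log2 scale, so that both rose less in the libraries labelled Pear1-/-. It was 0.76 for Itgb1 and 0.68 for Itga5, which were higher after bleo in Pear1-/- than the WT response alone would give, and 1.02 for Itga8, which fell less. Over all alternatives each of the 5 kept its sign and its call, with the largest adjusted p at 0.0132 for Itga5, 0.00758 for Itga8, 0.00587 for Itgav, 0.00046 for Itgb1 and 5.01e-05 for Itgb5. The genotypes differed for Itga8 by -0.65 after vehicle and by 0.37 after bleo (adjusted p = 0.0655, edgeR). WT vehicle replicates 1 and 3 had 3820 and 3810 normalized counts of it, against 2288 in replicate 2 and 1854 to 2280 in Pear1-/- vehicle. Leaving out 1 library at a time always kept replicate 1 or 3, so it could not test how far the Itga8 result rests on both. The summed leukocyte markers rose more in WT bleo than in Pear1-/- bleo, and their part in the values of Itgb5 and Itgav was not tested. The pericyte and smooth muscle markers summed to 5631 to 5904 after vehicle and 4424 to 4519 after bleo in WT. In Pear1-/- these sums were 5616 to 6302 and 12153 to 12441. Of the 8 markers, 4 had a more positive interaction, 0 a more negative one (1 without WT vehicle replicate 2) and 4 were not called. Their part in the values of Itgb1 and Itga5 was not tested.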

How the results depend on the processing

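No call of a member changed direction under any alternative tried. The number of members called stayed at 8 in WT after bleo and between 6 and 8 in Pear1-/- after bleo, between 6 and 9 between the genotypes after bleo, and between 5 and 7 for the interaction. The share of all genes called ranged between 47.7% and 76.4%, 33.3% and 69.7%, 19.2% and 66% and 16.1% and 46.4% in the same order, the lowest each time being with no filter on low counts. In the vehicle comparison the number of members called moved from 1 to 3 with no filter on low counts, to 0 with limma, to 0 with only the vehicle groups fitted and to 2 with the replicate block, and ranged from 0 to 5 when libraries were left out, 5 being without WT vehicle replicate 2. The number over all genes there moved from 784 to 5638, 164, 0 and 703 in the same order, to 1943 with scaling by total counts and to 823 with DESeq2, and at an unadjusted p under 0.05 limma had 3 members and 5656 genes and the fit of vehicle groups 3 members and 3091 genes. In that comparison Itga8 had an adjusted p of 0.0615 by limma and 0.229 in the fit of vehicle groups only. Replicate numbers share nothing but the number as far as tested: deviations of same-numbered libraries correlated between -0.161 and 0.0997 over 18 pairs, and 3 of 12 libraries correlated best with their own number. The block also called Itga1 in the vehicle comparison (adjusted p = 0.047) and in the interaction (adjusted p = 0.0465). Scaling by total counts moved the median of all genes to -0.15 in the vehicle comparison and to 0.15 in the interaction on the log2 scale, and the share of calls that were higher from 19.0% to 6.74% and from 48.3% to 61.9%. With that scaling the interaction was also called for Itga1 (0.49) and Itgb8 (0.73), against 0.35 and 0.58 with TMM. Counts of 45 or more limit the precision of Itga11, Itgb3 and Itgb8 most, and 3 libraries a group limit the estimate of spread.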
